A study of Populus trichocarpa with 9 samples.

Results

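The genes described here are the 113 of the 41335 genes in the deposited table that were higher, in xylem protoplasts of black cottonwood, after overexpression of either of 2 transcription factors (TFs), PtrHSFB3-1 and PtrMYB092, than after expression of GFP alone. They were chosen on the values themselves. Each library was divided by its median ratio to the mean library, and each TF library was set against the GFP library of the same replicate number, with 1 added to both scaled values. A gene was kept when the mean ratio to GFP was at least 2 for both TFs, each of the 6 single ratios was at least 1.5 and the mean scaled value was at least 10 with both TFs. Of the 27542 genes above 0 in at least 1 library, 303 had both mean ratios at or above 2, 282 of these passed on the single ratios as well, and 130 also passed on the mean value. From the 130, 15 genes of monolignol biosynthesis, PtrHSFB3-1 itself and 1 gene of a stretch of chromosome 4 were left out by the rule. The smaller of the 2 ratios was 2.01 and 2.04 in the members just inside the threshold and 1.99 and 1.98 in the genes just outside it.

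The study transfected protoplasts of stem-differentiating xylem (SDX), the wood-forming tissue, from 6-month-old Populus trichocarpa trees (genotype Nisqually-1) with plasmids by polyethylene glycol and sequenced their RNA after 12 h. The 3 groups carried a GFP control plasmid, a plasmid with PtrHSFB3-1 and GFP, or a plasmid with PtrMYB092 and GFP, each insert under a 35S promoter, with 3 libraries per group described as biological replicates. Whether the libraries of a group came from separate trees is not given in the sources used here, so a p-value reflects only how far these libraries spread. One label field of PtrMYB092 replicates 2 and 3 names the other TF, but each TF was high only in the libraries titled for it.

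PtrHSFB3-1 is a heat shock factor of class B, a class of plant heat shock factors that lack the activation motif of class A, and PtrMYB092 is an R2R3-MYB protein. R2R3-MYB proteins are known as regulators of lignin and other phenylpropanoid genes in wood, where monolignols are made from phenylalanine and polymerised in the secondary wall. Genes that answer to both TFs but lie outside the monolignol pathway are the subject here, and none of them has a name or an annotated role in the sources used here, so that they are given by their gene identifiers.

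The column totals lay between 428358 and 495579. The deposited value of PtrHSFB3-1 was 19859, 31149 and 42965 in its own libraries, 67, 53 and 61 with GFP and 119, 105 and 165 with the other TF. That of PtrMYB092 was 6922, 11036 and 17727 in its own libraries and between 4 and 6 in the others. The deposited values of the 5 secondary wall cellulose synthase genes, which mark xylem cells with thickening walls, did not exceed 2 in any library. Those of PtrIRX10-1 and PtrCslA2, of hemicellulose synthesis, did not exceed 1. The monolignol genes, whose products go into the secondary wall, differed from this. With GFP they ran from 0 in PtrCCoAOMT3 to 349 in replicate 1 of Ptr4CL3. The markers of wall formation thus differed, and the state of the cells is not read from them. Markers of other cell types were not used here.

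The 113 genes were mostly low in the control. The mean scaled value with GFP had a median of 8.80 over the genes and a range from 0 to 536.6, and 63 genes had a mean under 10. With PtrHSFB3-1 the median of the means was 41.99, and with PtrMYB092 it was 50.9. At a mean of 100 or more there were 32 genes in the PtrHSFB3-1 and 37 in the PtrMYB092 libraries, beside 6 in the control. Together the genes took 0.902%, 0.665% and 0.717% of the scaled total in GFP replicates 1, 2 and 3, 2.69%, 1.93% and 2.26% in the PtrHSFB3-1 libraries and 4.11%, 2.95% and 3.88% in the PtrMYB092 libraries. Since each library was made from a bulk of protoplasts, more cells with a transcript and more transcript per cell cannot be told apart.

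**Figure D1:**
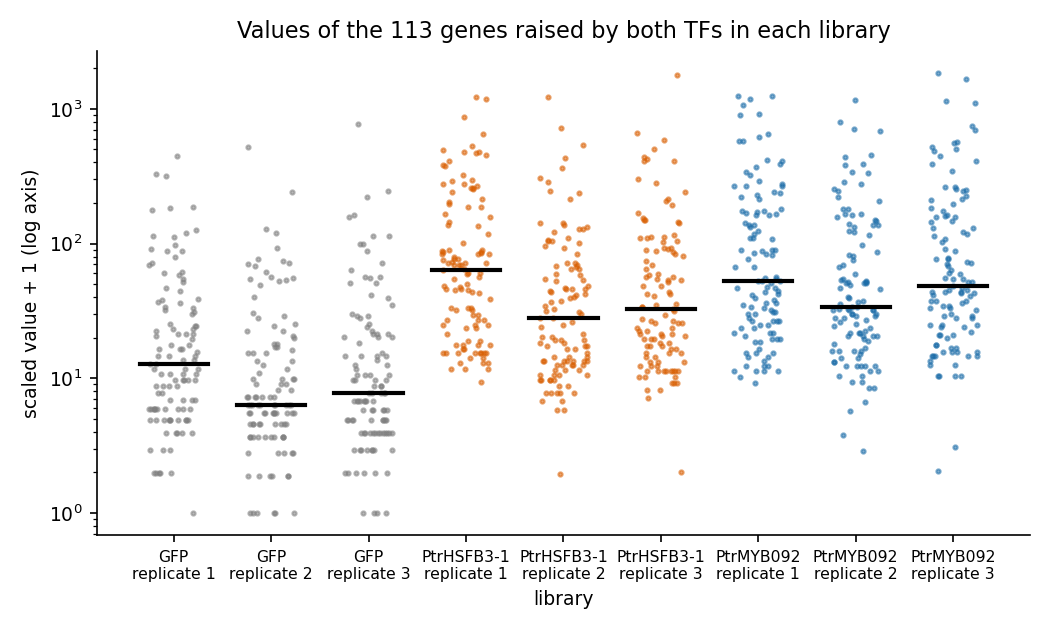
Scaled value plus 1 (log axis) of each of the 113 genes in each of the 9 libraries, with 1 point per gene and a bar at the median over the genes. The GFP libraries lie below the TF libraries, as the choice of the genes requires, and replicate 1 has the highest median within each group.

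The ratios to GFP chose the genes and are given as a description. The mean ratio with PtrHSFB3-1 ran from 2.01 to 45.1 with a median of 3.01 and quartiles of 2.45 and 5.58. With PtrMYB092 it ran from 2.04 to 121.9 with a median of 3.62 and quartiles of 2.66 and 9.47. In 49 of the 113 genes both ratios were under 4. A ratio of at least 4 with both TFs was found in 30 genes, with PtrMYB092 alone in 25 and with PtrHSFB3-1 alone in 9. At a ratio of at least 10 there were 26 genes with PtrMYB092, 11 with PtrHSFB3-1 and 5 with both. The ratio with PtrMYB092 was the larger in 78 genes and that with PtrHSFB3-1 in 35.

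The level in the control differed between genes with high and low ratios. The 7 genes with a mean GFP value under 2 had median ratios of 7.52 with PtrHSFB3-1 and 14.0 with PtrMYB092, while the 6 genes with a mean of at least 100 had 2.88 and 2.69. A gene with a low control value had to rise further to reach a mean of 10 with both TFs, so this order is partly set by the choice. In between, the 56 genes with a mean from 2 to 10 had median ratios of 3.04 and 4.33, and the 44 genes with a mean from 10 to 100 had 2.86 and 3.33. A value of 0 in at least 1 GFP library was found in 6 genes, and the size of their ratios depends on the 1 that was added.

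The next genes show the range of this common response and were chosen after their values were seen. Potri.019G091300, the single gene listed at 0 in all 3 GFP libraries, was at 14, 13 and 21 with PtrHSFB3-1 and at 11, 16 and 22 with PtrMYB092. All of its TF libraries lay above the control and those of the 2 TFs overlapped. Potri.005G043400, which had the largest smaller ratio of all 113 genes, was at 12, 6 and 3 with GFP, at 213, 113 and 87 with PtrHSFB3-1 and at 223, 177 and 152 with PtrMYB092. Its mean ratios were 19.98 and 26.9, and the libraries of the 2 TFs again overlapped. Potri.017G123600, the most abundant of the 113 genes over the TF libraries, was at 327, 581 and 799 with GFP, at 1027, 1263 and 1753 with PtrHSFB3-1 and at 1216, 1241 and 1774 with PtrMYB092. Its ratios were 2.75 and 2.76, every TF library lay above every GFP library, and replicate 3 was the highest library of each group.

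In 92 of the 113 genes all 3 PtrHSFB3-1 libraries lay above all 3 GFP libraries, against a background of 16.5% of the 7518 genes tested. All 3 PtrMYB092 libraries lay above the control in 100 genes, with a background of 11.8%, and all 6 TF libraries did so in 87 genes, with a background of 4.51%. These counts follow from the choice of the genes and nothing is read from them. In the remaining genes the groups overlapped even though every ratio within a replicate number was at least 1.5. At the threshold used below, 76 of the 113 genes were higher than GFP with PtrHSFB3-1 (background 6.19%), 82 with PtrMYB092 (background 4.11%) and 69 with both (background 1.32%), likewise as a description. These 69 were 69.7% of all genes higher with both TFs.

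Whether the 2 TFs raised these genes equally was tested as the difference between the PtrMYB092 and the PtrHSFB3-1 libraries. The choice used the same libraries and limits this difference, since the TF with the lower value still had to reach a ratio to GFP of 2 and a mean of 10. The shares below are therefore a description of chosen genes beside all genes. Genes higher with PtrMYB092 made up a larger share here than among all genes tested. With limma over all 7518 genes that passed a filter on low values, which all 113 genes passed, 23 of the 113 (20.4%) were higher with PtrMYB092 than with PtrHSFB3-1 at an adjusted p below 0.05 with over 2-fold change, against a background of 4.87%. In the other direction 5 genes (4.42%) were higher with PtrHSFB3-1, against a background of 6.58%. In that direction the share was the smaller in 18 of 23 alternative settings and the larger in 5, so that nothing is read from it. The share higher with PtrMYB092 was above that of all genes in all 23. These settings refit the same libraries and the same chosen genes, so their agreement is not separate evidence. The remaining 85 genes were not called. The median difference over the 113 genes was 0.35 on the log2 scale, and over all genes tested it was 0.06.

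**Figure D2:**
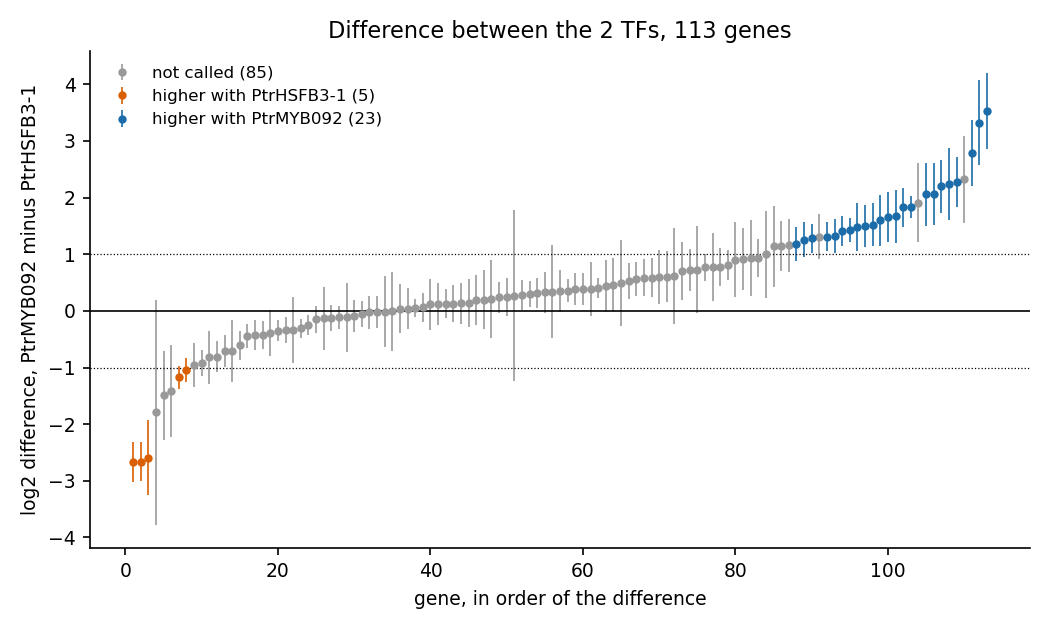
Difference between the TFs on the log2 scale, PtrMYB092 minus PtrHSFB3-1, for the 113 genes in ascending order, with the standard error from the fit, and dotted lines at a 2-fold difference. The 23 genes called higher with PtrMYB092 lie between 1.18 and 3.53 and the 5 called higher with PtrHSFB3-1 between -2.66 and -1.05.

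The replicate number, used as a block, took both counts up, to 29 genes (25.7%, background 5.99%) and 8 genes (7.08%, background 9.12%), and these included all 28 genes called without it. Single libraries moved the first count, which was 9 (7.96%, background 4.31%) and 5 (4.55%, background 2.88%) without PtrHSFB3-1 replicates 2 and 3. It was 13 (11.7%, background 4.19%), 13 (11.6%, background 2.41%) and 7 (6.25%, background 2.11%) without PtrMYB092 replicates 1, 2 and 3. The second count was 3 (2.68%, background 4.62%) without PtrMYB092 replicate 2. Without the PtrMYB092 replicates 2 and 3, the lone PtrMYB092 library is assumed to vary like the others, so calls are not counted in that fit. Nearly all calls were lost there, among the 104 genes still tested. Leaving out all 3 libraries numbered 1, which was chosen after seeing the data, 30 (30.3%, background 5.93%) and 7 (7.07%, background 5.55%) of the 99 genes still tested were called. With column totals as the scaling, the median over all genes moved to 0.21, the calls over all genes went from 366 higher with PtrMYB092 and 495 higher with PtrHSFB3-1 to 479 and 425, and the counts among the chosen genes were 26 (23.2%) and 4 (3.57%), with backgrounds of 6.26% and 5.55%.

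Counts by library describe the same values in another way and are not separate evidence. All PtrMYB092 libraries lay above all PtrHSFB3-1 libraries in 28 genes (24.8%, background 16.8%), and all 3 PtrHSFB3-1 libraries lay above in 10 (8.85%, background 17.6%). Within the replicate numbers, PtrMYB092 was the higher at all 3 in 55 genes (48.7%, background 32.3%) and PtrHSFB3-1 in 22 (19.5%, background 32%). The median difference was 0.07 at number 1, 0.41 at number 2 and 0.48 at number 3 on the log2 scale, where all genes had -0.05, 0.05 and 0.03. PtrMYB092 was the higher in 66, 79 and 82 of the 113 genes at numbers 1, 2 and 3. The excess was thus smallest in the libraries numbered 1.

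The genes higher with PtrMYB092 differed from the control by ratios of 5.14 to 121.9, with a median of 10.6, in the PtrMYB092 libraries and of 2.16 to 12.5, with a median of 3.42, in the PtrHSFB3-1 libraries. In 17 of the 23 the ratio with PtrHSFB3-1 was under 4. The 23 genes had differences between the TFs of 1.18 to 3.53 with a median of 1.66, and 8 were over 2 on the log2 scale. By mean GFP value, they included 2 of the 7 genes under 2, 12 of the 56 from 2 to 10 and 9 of the 44 from 10 to 100. None of the 6 genes at 100 or more was among the 23, from which nothing is read with so few genes. The 5 genes higher with PtrHSFB3-1 had differences of -2.66 to -1.05, and 3 of them exceeded 2 in size. Their ratios were 5.19 to 45.1 with PtrHSFB3-1 and 2.45 to 6.95 with PtrMYB092.

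Potri.005G162800 had the largest difference towards PtrMYB092. It was at 11, 3 and 2 with GFP, at 75, 17 and 20 with PtrHSFB3-1 and at 406, 271 and 430 with PtrMYB092. The 3 groups did not overlap, and with PtrHSFB3-1 replicate 1 stood above the others. Its scaled mean was 41.99 ± 40.9 (SD, n = 3) with PtrHSFB3-1 and 374 ± 105 (SD, n = 3) with PtrMYB092, a difference of 3.53 on the log2 scale (standard error 0.66, 95% interval 2.02 to 5.04, adjusted p = 0.00813 in limma).

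Potri.018G146100 followed with 21, 4 and 6 with GFP, 269, 44 and 90 with PtrHSFB3-1 and 872, 854 and 1606 with PtrMYB092, and again the 3 groups were separate. It had the largest ratio to GFP of the 113 genes with PtrMYB092, 121.9, and one of 12.5 with PtrHSFB3-1. The difference between the TFs was 3.32 (standard error 0.74, adjusted p = 0.0171 in limma). The call ended without PtrHSFB3-1 replicate 2 or 3 and without PtrMYB092 replicate 2 or 3, with adjusted p values in limma of 0.0539, 0.0733, 0.0501 and 0.0701, and with the replicate block the adjusted p was 6.27e-04.

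Potri.016G097400 had the largest difference towards PtrHSFB3-1. It was at 1, 0 and 1 with GFP, at 61, 47 and 101 with PtrHSFB3-1 and at 10, 8 and 12 with PtrMYB092, so that the groups formed 3 separate levels with the control almost at 0. The scaled mean was 73.7 ± 29.1 (SD, n = 3) with PtrHSFB3-1 and 10.1 ± 2.53 (SD, n = 3) with PtrMYB092, a difference of -2.66 (standard error 0.36, 95% interval -3.48 to -1.85, adjusted p = 0.00169 in limma). Its mean with PtrMYB092 was close to the minimum of 10 that the choice required.

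Potri.015G123900 was at 23, 7 and 12 with GFP, at 233, 247 and 272 with PtrHSFB3-1 and at 44, 35 and 41 with PtrMYB092. The PtrHSFB3-1 libraries were close together, at a scaled mean of 264 ± 23.1 (SD, n = 3), and far above both other groups. The difference was -2.66 (standard error 0.35, adjusted p = 0.00164 in limma), with a ratio to GFP of 20.5 for PtrHSFB3-1 and 3.18 for PtrMYB092.

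**Figure D3:**
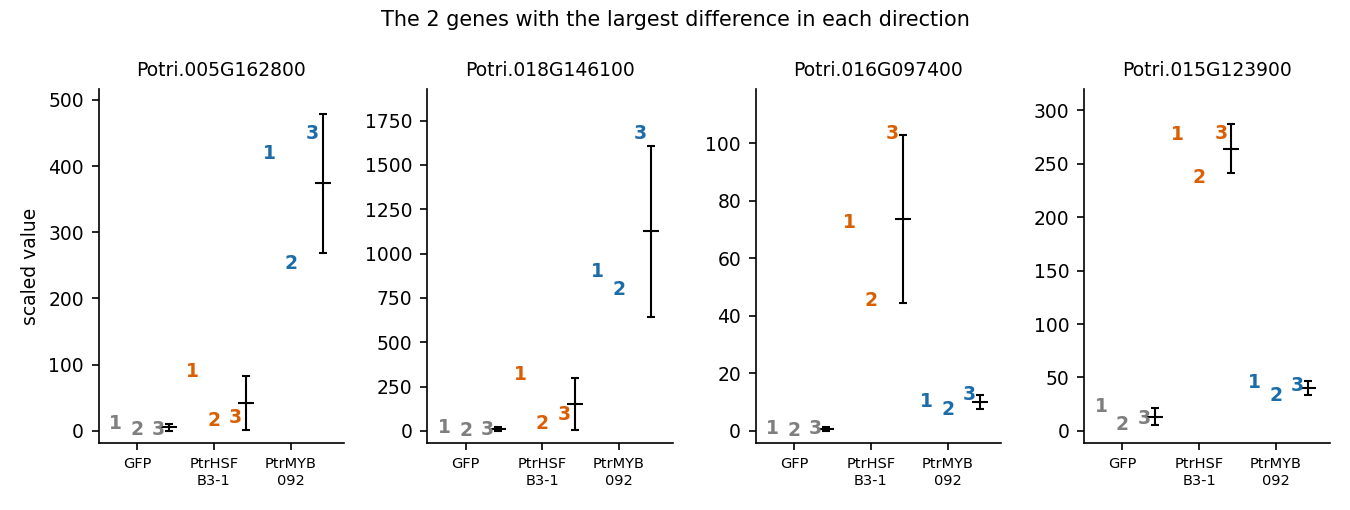
Scaled values of the 2 genes with the largest difference in each direction, with a digit for each replicate and the mean and SD (n = 3) beside it, on a separate linear axis for each gene. The PtrMYB092 libraries lie above all others for Potri.005G162800 and Potri.018G146100, and the PtrHSFB3-1 libraries for Potri.016G097400 and Potri.015G123900.

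The other 3 genes higher with PtrHSFB3-1, named after their values were seen, were Potri.001G463300, Potri.001G069200 and Potri.008G163200. Potri.001G069200 was at 59, 75 and 90 with GFP, at 400, 448 and 413 with PtrHSFB3-1 and at 167, 192 and 216 with PtrMYB092, a difference of -1.17 (standard error 0.20, adjusted p = 0.00477 in limma). Potri.008G163200 was at 129, 142 and 169 with GFP, at 733, 750 and 576 with PtrHSFB3-1 and at 280, 355 and 389 with PtrMYB092, a difference of -1.05 (standard error 0.22). Both genes had 3 separate levels with little spread between replicates.

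A gene that was not called is not shown to answer equally to the 2 TFs. For 26 of the 85 genes not called, the 95% interval of the difference lay within 1 of 0 on the log2 scale, which bounds the difference to under 2-fold either way. With the replicate block this was so for 52 of the 113 genes. Among the abundant genes Potri.017G123600, described above, had a difference of 0.04 with a standard error of 0.36. At an unadjusted p under 0.05, 33 genes (29.2%, background 15.4%) were higher with PtrMYB092 and 10 (8.85%, background 15.6%) with PtrHSFB3-1.

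Replicate 1 was the highest library for a larger share of these genes than of all genes tested, which is given as a description. It was the highest of its group in 75 of the 113 genes with GFP, 79 with PtrHSFB3-1 and 61 with PtrMYB092, shares of 66.4%, 69.9% and 54.0%, where all 7518 genes had 42.6%, 49.0% and 39.2%. It was highest in all 3 groups in 50 genes (44.2%), against 25.5% of all genes tested. The median gap between replicate 1 and the mean of replicates 2 and 3 was 0.63, 0.67 and 0.33 for GFP, PtrHSFB3-1 and PtrMYB092 on the log2 scale, and 0.06, 0.10 and 0.00 over all genes. The monolignol genes had this pattern too, with replicate 1 highest in 85%, 90% and 50% of the 20 tested, highest in all 3 groups in 50%, and median gaps of 1.30, 1.24 and 0.35. Replicate 2 was the lowest library in 58, 86 and 83 of the 113 genes in the same order of groups, where ties are not counted. The 2 transgenes went the other way, since each was lowest in replicate 1 of its own libraries, and the part of the transgene level in this pattern was not tested. The labels do not say what the replicate number stands for.

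**Figure D4:**
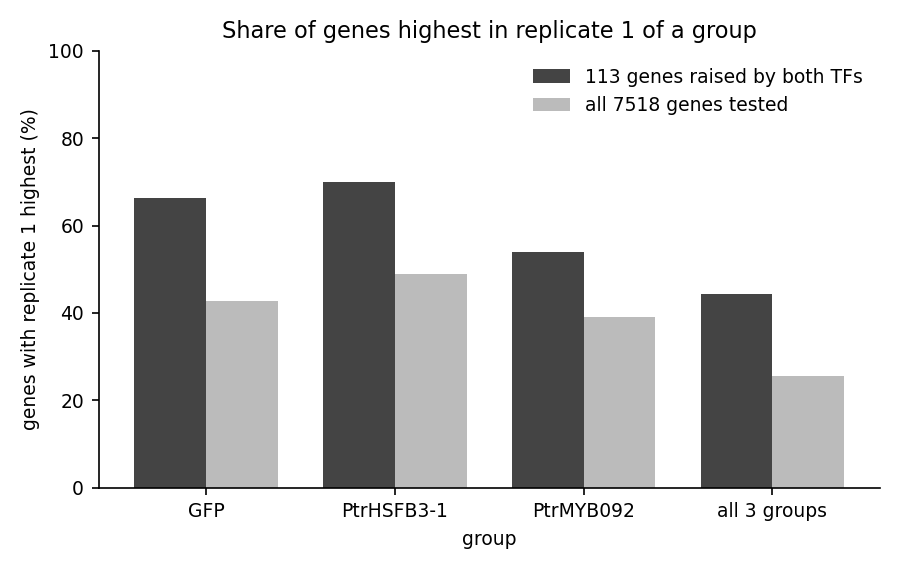
Percentage of genes in which replicate 1 was the highest library of its group, for GFP, PtrHSFB3-1, PtrMYB092 and all 3 groups at once, in the 113 genes (dark bars) and in all 7518 genes tested (light bars). The dark bars are at 66.4%, 69.9%, 54.0% and 44.2%, each above its light bar.

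This pattern bears on the spread behind the test. The median standard error of the difference was 0.53 in the 50 genes with replicate 1 highest throughout and 0.31 in the other 63 genes. With the replicate block it was 0.20 over the 113 genes, where it had been 0.37 without. Of the 23 genes higher with PtrMYB092, 11 had replicate 1 highest in all 3 groups, and of the 5 higher with PtrHSFB3-1, 1 did. Of the 9 genes that were called only with the block, 8 did. The ratios to GFP were not confined to these genes, as the 50 had median ratios of 3.19 with PtrHSFB3-1 and 5.04 with PtrMYB092 and the other 63 had 3.00 and 3.46.

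The positions of the genes were not used by the choice, apart from the stretch of chromosome 4. The 113 genes lay on all 19 chromosomes, with 18 on chromosome 1, 12 on chromosome 2 and 2 on scaffolds without a chromosome. Their share of the genes tested was 1.503% in all and ran from 0.619% on chromosome 10 to 2.47% on chromosomes 13, 15 and 17. Genes next to each other, with at most 3 other genes of the table between them, formed 9 runs that held 20 of the 113 genes. The identifiers that follow were chosen after their values were seen, and neighbours with similar sequences can share reads, which the sources used here do not allow to be checked.

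The longest run had 4 genes on chromosome 1, Potri.001G045500, Potri.001G045800, Potri.001G046100 and Potri.001G046400, with 6 other genes between the first and the last. The most abundant of them, Potri.001G046100, was at 458, 68 and 163 with GFP, at 997, 255 and 399 with PtrHSFB3-1 and at 1032, 418 and 717 with PtrMYB092. Potri.001G046400 had the same order of replicates in each group at a lower level, with 70, 10 and 25, then 320, 70 and 100, then 313, 149 and 239. Its ratios to GFP were larger, at 5.38 with PtrHSFB3-1 and 8.70 with PtrMYB092, against 3.01 and 4.15 for Potri.001G046100. In all 4 genes replicate 1 was the highest library of every group and the libraries of the 2 TFs overlapped. None of the 4 was called, with differences between the TFs of 0.50 to 1.00 on the log2 scale.

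On chromosome 2, Potri.002G189000 was at 189, 58 and 57 with GFP, at 413, 147 and 210 with PtrHSFB3-1 and at 1206, 763 and 1095 with PtrMYB092. Its near neighbour Potri.002G189200 was at 182, 54 and 56, at 392, 142 and 200, and at 1154, 727 and 1054. The ratio between them was 1.02 to 1.07 in all 9 libraries, so that they may not be 2 separate measurements. Their differences of 2.06 and 2.06 (standard errors 0.55 and 0.55, adjusted p = 0.0347 and 0.0343 in limma) count as 2 of the 23.

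On chromosome 5, Potri.005G043300, next to the strongly raised Potri.005G043400, was at 1, 1 and 1 with GFP, at 22, 12 and 8 with PtrHSFB3-1 and at 25, 31 and 23 with PtrMYB092. A second pair there, Potri.005G113700 and Potri.005G113900, was called higher with PtrMYB092 in both genes, with 4, 5 and 4 for Potri.005G113900 with GFP, 13, 15 and 19 with PtrHSFB3-1 and 64, 48 and 68 with PtrMYB092. Its difference was 1.84 (standard error 0.19, adjusted p = 5.74e-04 in limma), that of Potri.005G113700 was 1.43 (standard error 0.21), and in both genes the 3 groups were separate.

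Other neighbours were not called alike in the main fit. Potri.001G463300 on chromosome 1 was at 55, 13 and 15 with GFP, at 381, 317 and 403 with PtrHSFB3-1 and at 159, 41 and 35 with PtrMYB092, and was called higher with PtrHSFB3-1 (difference -2.59, standard error 0.66, adjusted p = 0.0287 in limma). The adjacent Potri.001G463400 was at 39, 0 and 1, at 346, 13 and 15, and at 167, 3 and 2, so that replicate 1 carried nearly all of its level in every group. Its difference of -1.79 had a standard error of 1.99 and was called only with the block (adjusted p = 8.60e-04 in limma). On chromosome 15, Potri.015G124000, next to Potri.015G123900, was at 73, 133 and 254 with GFP, at 216, 295 and 425 with PtrHSFB3-1 and at 260, 297 and 483 with PtrMYB092. It did not share the excess with PtrHSFB3-1 of its neighbour, at a difference of 0.12 with a standard error of 0.45, though the difference between the neighbours was not tested. In 4 of the 9 runs all genes had a difference above 0, in 4 all had one below 0 and in 1 the signs were mixed. These signs were counted whatever their size, and of the 20 genes 4 were called higher with PtrMYB092 and 2 with PtrHSFB3-1. Neither the signs nor the number of runs was set against neighbours among all genes, so nothing is read from them.

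**Figure D5:**
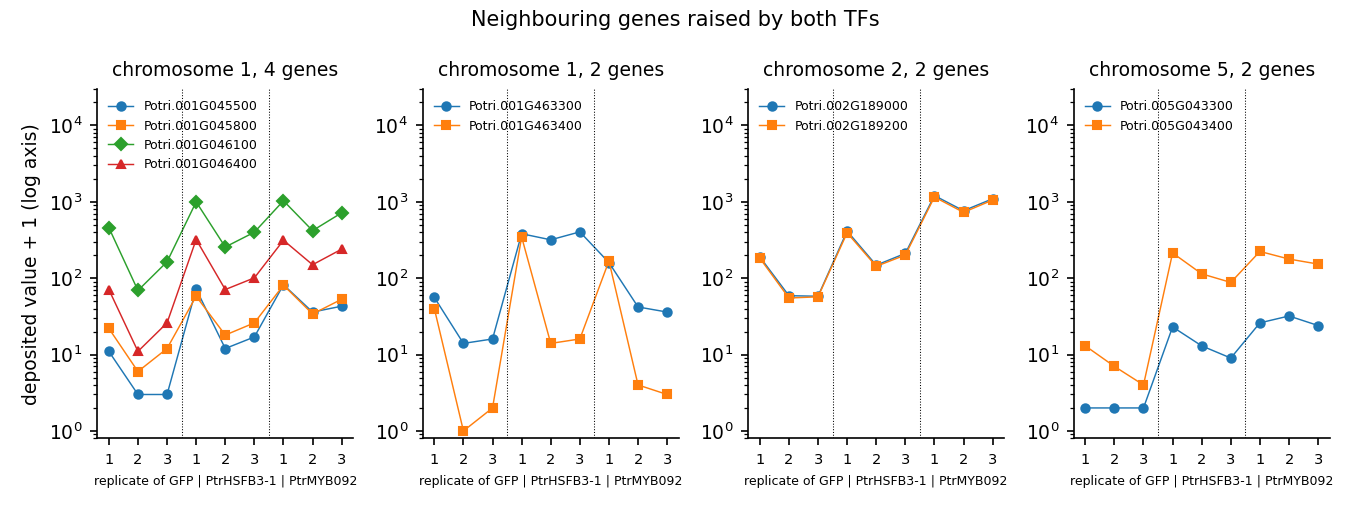
Deposited value plus 1 (log axis) in each library for 4 of the 9 runs of neighbouring genes, with replicates 1 to 3 of GFP, PtrHSFB3-1 and PtrMYB092 from left to right and a line per gene. The lines of the 2 genes on chromosome 2 lie on each other at a ratio of 1.02 to 1.07, while those of Potri.001G463300 and Potri.001G463400 part in replicates 2 and 3.

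The study also lists genes that responded to 3 d of stem bending in intact trees, which induces tension wood and is a list from other samples. Of the 113 genes, 3 were on its induced part, which holds 32 of the 7518 genes tested, and 3 on its repressed part, which holds 45. These are 2.65% of the 113 genes in either case, against 0.426% and 0.599% of all genes tested. Of the listed genes that were tested they are 9.38% and 6.67%. The whole lists hold 244 induced and 147 repressed genes, most of which were not among the genes tested. The induced genes were Potri.003G216400, Potri.015G147900 and Potri.014G049600, and the repressed ones Potri.001G320400 and the pair Potri.002G189000 and Potri.002G189200, so that the second count rests on that pair. Potri.014G049600 was at 45, 8 and 9 with GFP, at 164, 86 and 106 with PtrHSFB3-1 and at 887, 365 and 540 with PtrMYB092, a difference of 2.24 (standard error 0.64, adjusted p = 0.0427 in limma). Potri.001G320400 was at 36, 12 and 8, at 98, 26 and 24, and at 267, 123 and 115, a difference of 1.91 that was called only with the block (adjusted p = 8.46e-05 in limma). Potri.003G216400 and Potri.015G147900 had differences of -0.01 and 0.19, with standard errors of 0.70 and 0.44. Genes of both directions in bending were thus among those raised by both TFs.

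The monolignol genes, which the choice left out, had the same direction of difference. Of the 20 that could be tested, 13 were higher with PtrMYB092 than with PtrHSFB3-1 in limma (background 4.87%). The other 7 were not called, and 0 were higher with PtrHSFB3-1 (background 6.58%). At an unadjusted p under 0.05 the counts were again 13 and 0 (backgrounds 15.4% and 15.6%). Only 15 monolignol genes met the thresholds of the choice, so the 20 include genes not raised by both TFs. PtrHCT1, for one, was at 19, 11 and 9 with GFP and at 9, 6 and 5 with PtrHSFB3-1. The median difference of the 20 was 1.88 and that of the 113 genes 0.35, which are medians of sets chosen in unlike ways. The study chose part of the monolignol list on these libraries. The genes of the monolignol pathway and the 113 genes were not tested against each other.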

How the data were processed

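RNA of 9 libraries was sequenced by the study. The deposited values, named raw counts and used here as a score, were made by the authors from reads mapped with Bowtie 2 to the P. trichocarpa genome v3.0, while TopHat is the tool in the submitters' processing notes. How reads were counted is not given in the sources used here. They were not taken as counts because they vary less than counting allows: of the genes that summed to 2 over a pair of libraries, 81.9% to 97.5% had 1 in each over 36 pairs. A depth and its counting error are therefore unknown, and no count model was used.

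Values were scaled by the trimmed mean of M values (unweighted), log2(scaled value + 1) was fitted with limma 3.58.1 in R 4.3.3 with a trend on the mean over all 9 libraries, and p-values were adjusted by Benjamini-Hochberg over the 7518 genes that reached a scaled value of 10 in 3 or more libraries. A call needed an adjusted p below 0.05 with over 2-fold change. Fold changes are on the log2(value + 1) scale and understate those of low genes. Scaled values and ratios to GFP used the median of ratios, as the choice of the genes did. The script was tested on simulated data. The members and lists were chosen with earlier results of these data known.

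Deviations from the group means of libraries with the same number correlated over the genes tested (r 0.519 to 0.863, 9 pairs). Between other numbers r was -0.704 to 0.268 over 18 pairs. The ratios to GFP were paired by number, but the main fit had no block and so ignored this pairing. Its calls, standard errors and intervals are those of unpaired groups. The median standard error over the 113 genes was 0.37, and with the block it was 0.20. The block was an alternative, beside other scalings, filters, added constants and thresholds and fits without a library. The genes named are the 2 with the largest difference in each direction; others were named after their values were seen and are so described. None of the 41335 identifiers matched the reference table used here, so sequences, promoters and annotated lists were not analysed here. The authors' lists of genes changed in these libraries were not used; their list for stem bending, from other samples, was used for membership only.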

Additional observations from a re-analysis of the deposited data

Results flagged for a closer look

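The choice used these same libraries, so the counts here describe chosen genes. By the test of the difference itself, the effects of the 2 TFs against the same GFP libraries differed in genes of both directions. Nothing is read from the share higher with PtrHSFB3-1, which was below that of all genes in 18 of 23 alternative settings and above it in 5. In 23 genes (20.4%, background 4.87%) the value was higher with PtrMYB092. In 5 genes (4.42%, background 6.58%) it was higher with PtrHSFB3-1, a share below that of all genes. The 4 genes named by the rule are among them, with PtrMYB092 minus PtrHSFB3-1 at 3.53 for Potri.005G162800 and 3.32 for Potri.018G146100, and at -2.66 for Potri.016G097400 and -2.66 for Potri.015G123900, each in the same direction at all 3 replicate numbers. Groups of 3 libraries were not examined for outlying libraries.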

How the results depend on the processing

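The count of genes higher with PtrMYB092 was 23. It ran from 16 to 26 under the other scalings, filters and added constants, the 6 TF libraries alone, no fold threshold and no transgenes. The share in these settings was 14.2% to 25.9%, with backgrounds of 3.13% to 8.17%. It was 7 at an adjusted p under 0.01 and 5 to 26 without any 1 library. The count higher with PtrHSFB3-1 was 5 and became 3 at an adjusted p under 0.01, 3 to 5 without any 1 library and 0 without PtrMYB092 replicates 2 and 3, beside 8 at an unadjusted p under 0.05 in limma. At an adjusted p under 0.01 the 2 shares were 6.19% (background 2.83%) and 2.65% (background 3.99%). Without any 1 library they were 4.55% to 23.6% (backgrounds 2.11% to 5.36%) and 2.68% to 4.5% (backgrounds 2.97% to 7.19%). With the replicate block the counts were 29 (25.7%, background 5.99%) and 8 (7.08%, background 9.12%), no call ended, and the 4 named genes kept theirs. With the replicate block and no library numbered 1, which was chosen after seeing the data, the counts were 32 (32.3%, background 6.55%) and 8 (8.08%, background 6.47%). Without PtrMYB092 replicates 2 and 3, which leaves 1 PtrMYB092 library, the 4 named genes lost their calls. Their differences were then 3.72, 3.06, -2.63 and -2.50, about as large as with all libraries. No direction of the 4 genes reversed. The choice itself gave 73 genes with 5 added before the logarithm, all of them among the 113, and 83 with column totals, of which 82 were among them. It gave 89, 130 and 122 without replicate number 1, 2 and 3. The causes were not tested.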
